A study of Mus musculus with 18 samples.

Results

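The enzymes of arginine handling and the urea cycle were followed in mouse mammary tumours as 8 genes, Cps1, Otc, Ass1, Asl, Arg1, Arg2, Nos2 and Odc1. They were taken by their symbol in the platform annotation, out of 16887 named genes on the array, and all 8 were measured, each by 1 array feature. The set was chosen by function and on a measured value, with earlier results of these data known, in which the Arg1 ratio of iFGFR1 tumours over Wnt1 tumours stood out. Values of iFGFR1 against Wnt1 are therefore descriptions for all 8 genes, and so are Arg1 values in every comparison that holds iFGFR1. Arg1 in the other comparisons with Wnt1 shares the Wnt1 arrays of that ratio, so its tests there are not free of the choice.

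The series measured 18 primary mammary tumours on arrays with 2 channels, tumour RNA in Cy5 and total RNA of whole mouse as a common reference in Cy3. The groups were Wnt1 (6 arrays), Wnt1_iFGFR1, Wnt1_iFGFR2 and Wnt1_iR2 (4 arrays each), called Wnt1, iFGFR1, iFGFR2 and iR2 below. All 18 titles carry FVB, an inbred mouse strain, and MMTV and Wnt1, so the Wnt1 transgene under the MMTV promoter, which acts in mammary epithelium, was shared by every group, controls included. The series title places the question in how FGF receptor and Wnt-1 signals work together in mammary tumours. The labels do not spell out iFGFR1, iFGFR2 or iR2, and iR2 was kept apart from iFGFR2. The sources used here give no age, inducing agent or time of treatment. Each array title carries a number of its own, but whether each array stands for an animal of its own is not labelled. The p-values therefore cover the variation among these samples only, part of which may be technical.

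In the urea cycle, Cps1 and Otc act in mitochondria to build citrulline from ammonia, bicarbonate and ornithine, Ass1 and Asl turn citrulline into arginine, and arginase splits arginine into urea and ornithine. The full cycle runs in liver, whereas most other tissues hold only some of its enzymes and use them to make arginine, nitric oxide, polyamines and proline. Arg1 is the cytosolic arginase of hepatocytes and is also made by some myeloid cells, Arg2 is the mitochondrial form, Nos2 makes nitric oxide from arginine, and Odc1 turns ornithine into putrescine, the first polyamine.

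Each value is the log2 ratio of tumour to reference RNA for 1 gene on 1 array. A ratio of 0 means that tumour and reference gave equal signal, and a ratio can be compared between arrays but not between genes. The reference holds RNA of every organ, liver included. The mean ratio of 10 luminal mammary markers (Krt8, Krt18, Epcam and others) was above 0 on all 18 arrays, from 1.25 to 3.13, and that of 10 hepatocyte markers lay between -4.40 and -3.70. On the iR2 arrays the 1st percentile of all gene ratios lay between -4.98 and -4.61, lower than on the Wnt1 arrays (-4.36 to -4.11). Wnt1 replicate 3 had the highest luminal marker mean, 3.13, against 1.25 to 2.41 on the other Wnt1 arrays. Its basal (0.18), fibroblast (-0.98) and endothelial (-0.27) marker means were also the highest of the Wnt1 arrays. In a bulk tumour sample, fewer cells of a type and less RNA per cell cannot be told apart.

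Set side by side, the 8 genes did not move as 1 block. By group means against Wnt1, the arginases and Asl stood higher in all 3 receptor groups, Odc1 was lower in iFGFR2 and iR2 and not in iFGFR1, Cps1 was higher in iFGFR1 and iFGFR2 and lower in iR2, and Nos2 was close to its Wnt1 ratio in iFGFR2 and iR2. By limma's test at an adjusted p under 0.05, 3 of the 8 rose in iFGFR2 against Wnt1 (Arg2, Asl and Cps1), where 3.43% of all genes were called and 1.97% as higher. In iR2 against Wnt1, 3 rose (Arg1, Arg2 and Asl) and 2 fell (Cps1 and Odc1), where 7.10% of all genes were called, 3.91% as higher and 3.19% as lower. For iFGFR1 against Wnt1, the comparison known when the genes were chosen, 5 of 8 were past that threshold, all higher, where 15.4% of all genes were and 8.38% as higher, and nothing is read from that count. These comparisons share the 6 Wnt1 arrays, which for Arg1 are also part of the ratio known when the genes were chosen. The F test over the 4 groups holds the iFGFR1 against Wnt1 contrast, so its count of 5 of 8, where 19.6% of all genes were past the threshold, is a description too. The median difference of the 8 genes was 1.08 in iFGFR1, 0.93 in iFGFR2 and 0.31 in iR2, and over all genes it was 0.02, 0.01 and -0.05. With only the compared arrays in the fit, 0 of 8 were called in iFGFR2 against Wnt1 by limma (6 at an unadjusted p under 0.05), where 143 genes were called in all against 579 with all arrays. With the samples' title numbers added to the fit as a covariate, 0 of 8 were called in iR2 against Wnt1 (3 unadjusted), where 52 genes were called against 1199. The Arg1 difference was then 1.0002, that of Asl 1.63 and that of Odc1 -0.16. The title numbers of the iR2 arrays all lie above those of the other groups, so number and group can hardly be told apart there.

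**Figure D1:**
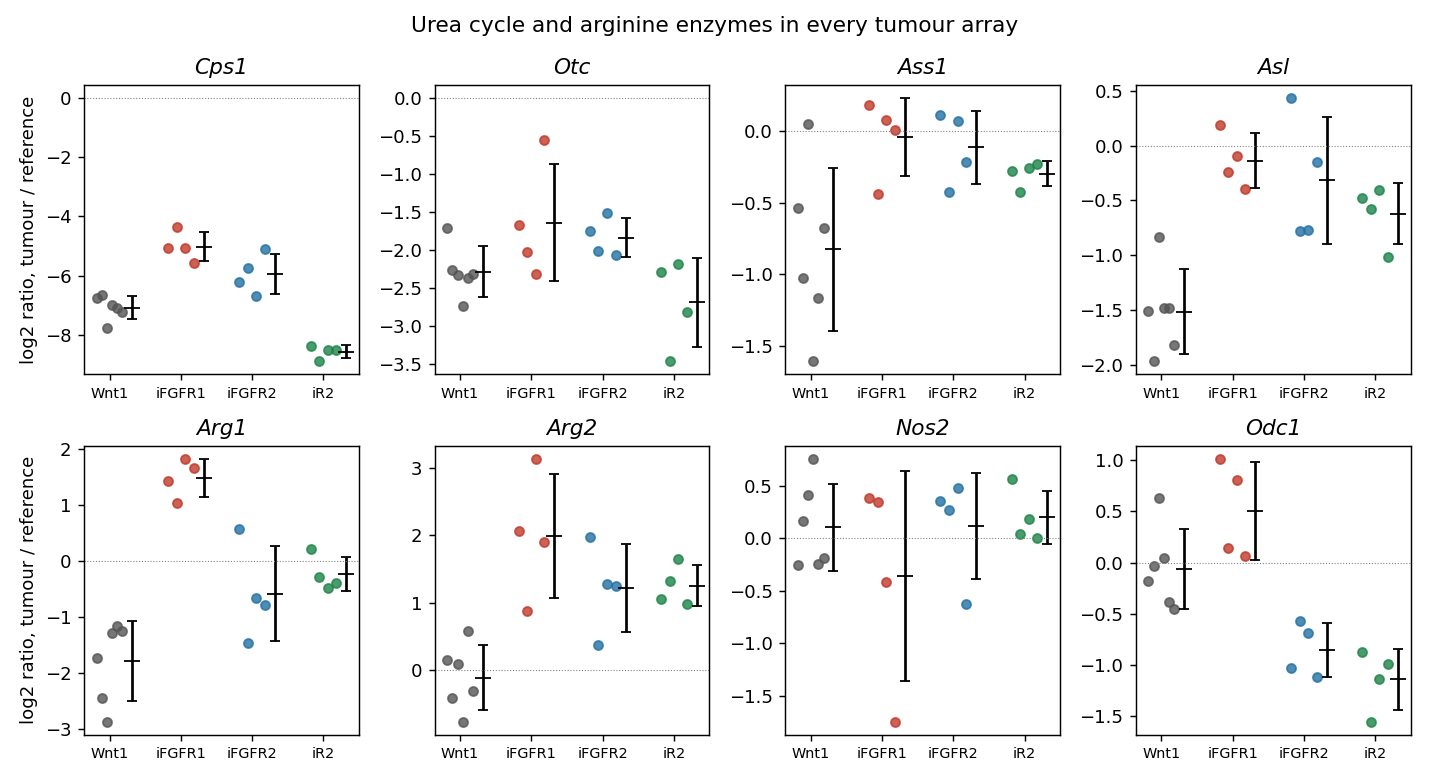
Log2 ratio of tumour over reference RNA for each of the 8 genes (vertical axis, a separate scale per gene) on every array of the 4 tumour groups (horizontal axis); points are arrays, and the bar beside them is mean ± SD (n = 6 for Wnt1, n = 4 for the others). All 4 iFGFR1 arrays lie above every other array for Arg1, from 1.03 to 1.81, and all 4 iR2 arrays lie below every other array for Cps1, from -8.89 to -8.37. Of all genes, in either direction, 9.49% did not overlap between iFGFR1 and Wnt1 and 13.6% between iR2 and Wnt1.

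**Figure D2:**
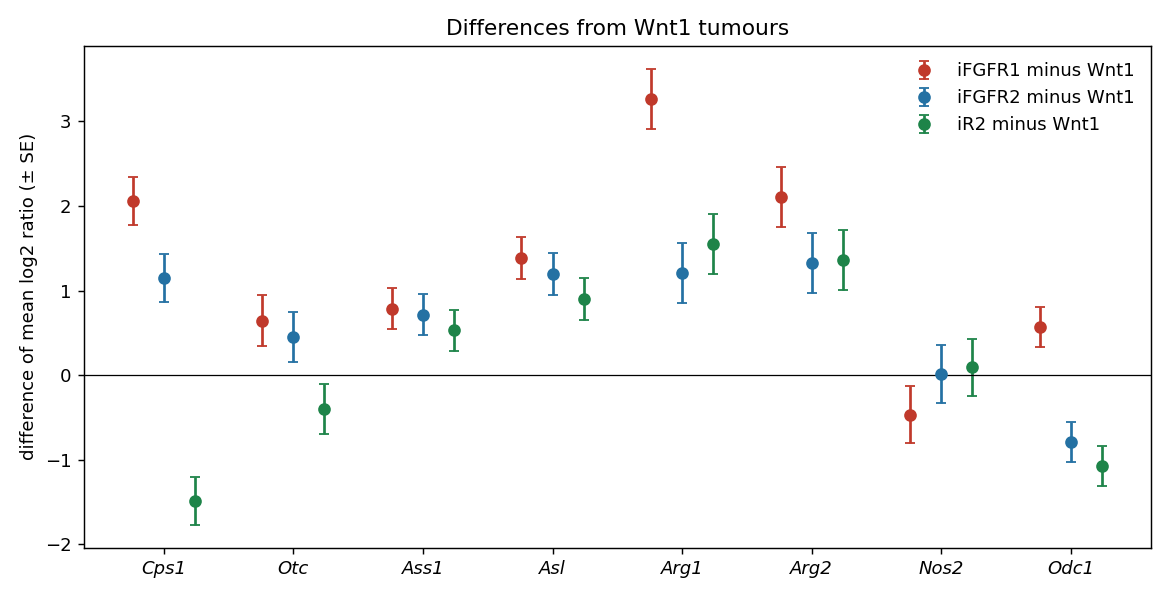
Difference of the mean log2 ratio from the Wnt1 arrays (vertical axis) for each gene (horizontal axis) in iFGFR1, iFGFR2 and iR2 tumours; error bars are the standard error of limma's fit. Cps1 is 2.06 higher in iFGFR1 and 1.49 lower in iR2, and Odc1 lies above 0 in iFGFR1 and below 0 in iFGFR2 and iR2.

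Cps1, which commits ammonia to the cycle, had ratios far below 0 on all 18 arrays, between -8.89 and -4.37, and the lowest value of the whole table is -9.03. Whether the tumour signal was above background at such ratios cannot be read from the table, which limits the differences below. The Wnt1 arrays ran from -7.77 over a median of -7.05 to -6.66. The iFGFR1 arrays stood at -5.09, -4.37, -5.07 and -5.59, the iFGFR2 arrays at -6.21, -5.75, -6.69 and -5.10, and the iR2 arrays at -8.37, -8.89, -8.52 and -8.50. The iR2 arrays were below all others, the iFGFR1 arrays above all Wnt1 arrays, and iFGFR2 overlapped both Wnt1 and iFGFR1. Of all genes, in either direction, 9.49% did not overlap between iFGFR1 and Wnt1 and 13.6% between iR2 and Wnt1. The share was 22.2% between iR2 and iFGFR1 and 13.0% between iR2 and iFGFR2. The order of the means was thus iFGFR1, iFGFR2, Wnt1, iR2.

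Against Wnt1, Cps1 was 2.06 higher in iFGFR1 (SE 0.28). It rose by 1.15 in iFGFR2 (SE 0.28, 2.21-fold, adjusted p = 0.0314) and fell by 1.49 in iR2 (SE 0.28, adjusted p = 0.00530). The difference between receptor groups was larger than either. In iR2 against iFGFR1 Cps1 fell by 3.54 (SE 0.31, adjusted p = 3.7e-06), and in iR2 against iFGFR2 by 2.63 (SE 0.31, adjusted p = 0.000741). That last fall was the only call among the 8 genes in its comparison, where 1.34% of all genes were called and 1.07% as lower, and no gene of the array had a lower difference there. For iFGFR2 against iFGFR1 the difference was -0.91 (adjusted p = 0.136).

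The lower values of iR2 came with a lower end of the whole array. After quantile normalization, which gives every array the same distribution, the iR2 difference from Wnt1 was -0.54 (adjusted p = 0.291), so that call ended, while those against iFGFR1 (-2.43, adjusted p = 0.000188) and iFGFR2 (-1.68, adjusted p = 0.0459) did not. The hepatocyte marker mean moved the same way, -4.40 to -4.36 on the iR2 arrays and -4.15 to -3.84 on the Wnt1 arrays, with none of its 10 genes called in iR2 against Wnt1. In iR2 against iFGFR1 2 of the 10 fell, where 6.84% of all genes were called as lower. In iR2 against iFGFR2 2 fell as well, where 1.07% were. The part of the lower array end or of the hepatocyte markers in the Cps1 result was not tested. The iFGFR2 rise lost its call without any 1 of 5 arrays (Wnt1 replicates 4, 5 and 6, iFGFR2 replicates 1 and 4; adjusted p 0.0539 to 0.105).

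Otc, the next enzyme of the cycle, was low as well and varied less. Wnt1 arrays ran from -2.74 over -2.32 to -1.70, and the iFGFR1 arrays stood at -1.67, -2.03, -2.32 and -0.56. The iFGFR2 arrays gave -1.76, -2.01, -1.51 and -2.07, and the iR2 arrays -2.29, -3.46, -2.19 and -2.81. Only iFGFR2 and iR2 did not overlap, and all other pairs of groups did. Of all genes, 13.0% did not overlap between iFGFR2 and iR2. Neither iFGFR2 (0.45, adjusted p = 0.412) nor iR2 (-0.40, adjusted p = 0.461) passed the test against Wnt1. In iR2 against iFGFR1 Otc fell by 1.04 (SE 0.33, adjusted p = 0.0440), a call that was lost after quantile normalization (-0.72, adjusted p = 0.168) and without any 1 of 7 arrays, among them iFGFR1 replicate 4 (-0.68, adjusted p = 0.144) and iR2 replicate 2 (-0.79, adjusted p = 0.164). In iR2 against iFGFR2 the difference was -0.85 (adjusted p = 0.207).

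Nags, which makes the activator that Cps1 needs, and Slc25a15, which carries ornithine into mitochondria for Otc, passed no test in any of the 6 comparisons. Against Wnt1, Nags differed by 0.17 in iFGFR1, 0.21 in iFGFR2 and -0.40 in iR2. For Slc25a15 the 3 differences were 0.70, 0.26 and 0.17.

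Ass1 and Asl make arginine from citrulline in succession. Asl rose in iFGFR2 and iR2 against Wnt1, and the Ass1 differences did not pass the test there. For Asl the Wnt1 arrays ran from -1.97 over -1.50 to -0.83. The iFGFR1 arrays stood at 0.19, -0.24, -0.10 and -0.39, the iFGFR2 arrays at 0.44, -0.78, -0.77 and -0.15, and the iR2 arrays at -0.48, -0.58, -0.40 and -1.02. All iFGFR1 and iFGFR2 arrays were above every Wnt1 array, and 1 iR2 array, at -1.02, was below the highest Wnt1 array, replicate 3. Of all genes, in either direction, 9.49% did not overlap between iFGFR1 and Wnt1 and 4.48% between iFGFR2 and Wnt1. Asl was 1.38 higher in iFGFR1 (SE 0.25). It rose by 1.20 in iFGFR2 (SE 0.25, 2.29-fold, adjusted p = 0.0146) and by 0.90 in iR2 (SE 0.25, 1.86-fold, adjusted p = 0.0339). Between the receptor groups the differences ran from -0.48 to -0.18 and none passed the test. The iFGFR2 rise lost its call without iFGFR2 replicate 1 (0.95, adjusted p = 0.0695), and the iR2 rise without any 1 of 8 arrays (adjusted p 0.0533 to 0.121).

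For Ass1 the Wnt1 arrays spread from -1.60 over -0.85 to 0.05. The iFGFR1 arrays gave 0.18, -0.44, 0.08 and 0.01, the iFGFR2 arrays 0.11, -0.42, 0.07 and -0.22, and the iR2 arrays -0.28, -0.42, -0.26 and -0.23. Wnt1 replicate 3, at 0.05, lay among the receptor tumours, so that every receptor group overlapped Wnt1, and the other 5 Wnt1 arrays were below all 12 receptor arrays. Ass1 was 0.78 higher in iFGFR1 (SE 0.24), and the differences of 0.71 in iFGFR2 (adjusted p = 0.0977) and 0.53 in iR2 (adjusted p = 0.192) did not pass the test. Without Wnt1 replicate 3 they were 0.89 (adjusted p = 0.0167) and 0.70 (adjusted p = 0.0370), both past the threshold. That array also had the highest Asl and Odc1 of its group. Its means of the luminal, basal, squamous, fibroblast, endothelial, neutrophil, T and NK cell and both macrophage marker lists were the highest of the Wnt1 arrays. Its hepatocyte and small intestine means were not. The part of these marker means in the values was not tested.

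Promoter sequence was available for Ass1, Odc1 and Otc of the 8 genes, from RefSeq on GRCm38.p6. Those of Ass1 and Odc1 are shown because they hold short motifs that could be searched for, the E-box CACGTG bound by Myc and related factors and the GC box GGGCGG bound by Sp1, both strands, in capitals. The Ass1 stretch is the 250 bases before the gene start, chr2:31470020-31470269 on the plus strand:
Ass1: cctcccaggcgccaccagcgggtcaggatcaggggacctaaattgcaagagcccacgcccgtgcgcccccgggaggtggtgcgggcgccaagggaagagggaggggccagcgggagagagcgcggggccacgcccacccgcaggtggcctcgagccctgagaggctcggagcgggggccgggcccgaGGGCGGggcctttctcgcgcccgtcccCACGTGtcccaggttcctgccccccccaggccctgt
It holds 1 CACGTG, 36 bases before the start, and 1 GGGCGG, 63 bases before it, and 75.6% of its bases are G or C, against a median of 52.4% over 32851 promoters of the same length. CACGTG was present in 6.02% of those promoters and GGGCGG in 32.7%. The Odc1 stretch is chr12:17544623-17544872 on the plus strand:
Odc1: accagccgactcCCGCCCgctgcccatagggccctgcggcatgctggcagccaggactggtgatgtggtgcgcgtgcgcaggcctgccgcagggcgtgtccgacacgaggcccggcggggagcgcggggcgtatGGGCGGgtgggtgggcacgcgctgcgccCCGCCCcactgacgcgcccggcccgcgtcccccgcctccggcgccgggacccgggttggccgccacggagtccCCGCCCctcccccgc
It holds 4 copies of GGGCGG or its reverse complement and no CACGTG, and 80.0% of its bases are G or C. The Otc window held neither motif and 43.6% G or C. These matches describe letters and not bound sites. Only the 250 bases before each start were searched, so a motif elsewhere in or near a gene would not be seen.

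The arginases, which split arginine, were the members with the largest differences from Wnt1 in iFGFR1 tumours. For Arg1 the Wnt1 arrays ran from -2.86 over -1.50 to -1.16, and the iFGFR1 arrays stood at 1.41, 1.03, 1.81 and 1.65. The iFGFR2 arrays were at 0.58, -1.46, -0.66 and -0.78, and the iR2 arrays at 0.21, -0.28, -0.48 and -0.39. The iFGFR1 arrays were above all others and the iR2 arrays above all Wnt1 arrays, whereas iFGFR2 reached from inside the Wnt1 range to above every iR2 array. Of all genes, in either direction, iFGFR1 did not overlap with Wnt1 for 9.49%, with iFGFR2 for 6.17% and with iR2 for 22.2%. Between iR2 and Wnt1 the share was 13.6%. Arg1 was 3.26 higher in iFGFR1 than in Wnt1 (SE 0.36, 9.61-fold), 2.06 lower in iFGFR2 than in iFGFR1 (SE 0.39) and 1.71 lower in iR2 than in iFGFR1 (SE 0.39). In iR2 against Wnt1 it rose by 1.55 (SE 0.36, 2.93-fold, adjusted p = 0.0145 by limma). No iFGFR1 value enters that difference, but the Wnt1 arrays of the ratio known beforehand do. Its p is therefore not free of the choice of genes, and the same holds for iFGFR2 against Wnt1. In iFGFR2 against Wnt1 the difference of 1.20 (SE 0.36) did not pass the test (adjusted p = 0.0622), and iR2 differed from iFGFR2 by 0.35 (adjusted p = 0.739).

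The iR2 rise of Arg1 lost its call without iR2 replicate 1 (1.40, adjusted p = 0.0627). The iFGFR2 difference turned on which array was left out, from 0.82 (adjusted p = 0.240) without replicate 1 to 1.498 (adjusted p = 0.0186) without replicate 2.

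Arg2, the mitochondrial arginase, was high in all 3 receptor groups. Its Wnt1 arrays ran from -0.76 over -0.11 to 0.59, and the iFGFR1 arrays stood at 2.06, 0.89, 3.14 and 1.91. The iFGFR2 arrays were at 1.97, 0.38, 1.28 and 1.25, and the iR2 arrays at 1.05, 1.33, 1.65 and 0.98. All iFGFR1 and iR2 arrays were above every Wnt1 array, and 1 iFGFR2 array, replicate 2 at 0.38, was inside the Wnt1 range. Of all genes, in either direction, 9.49% did not overlap between iFGFR1 and Wnt1 and 13.6% between iR2 and Wnt1. Arg2 was 2.10 higher in iFGFR1 (SE 0.35, 4.30-fold). It rose by 1.33 in iFGFR2 (SE 0.35, 2.51-fold, adjusted p = 0.0437) and by 1.36 in iR2 (SE 0.35, 2.57-fold, adjusted p = 0.0250). The receptor groups did not pass the test against each other (-0.78 for iFGFR2 and -0.74 for iR2 against iFGFR1, adjusted p = 0.328 and 0.234; 0.03 for iR2 against iFGFR2, adjusted p = 0.982). Both called rises were near the threshold. That of iFGFR2 lost its call without any 1 of 11 arrays (adjusted p 0.0520 to 0.179), and that of iR2 without any 1 of 6 (Wnt1 replicates 2, 4 and 6 and iR2 replicates 1, 2 and 3; adjusted p 0.0532 to 0.101).

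Arg1 is also a gene of alternatively activated macrophages, so their markers are given beside it. Of 9 measured markers of that state (Retnla, Chil3, Mrc1 and others), none was called against Wnt1 in iFGFR1, iFGFR2 or iR2 by limma, with 1, 2 and 2 at an unadjusted p under 0.05. Their mean ratio ran from -0.83 to 0.40 on the Wnt1 arrays, -0.42 to 0.03 in iFGFR1, -1.33 to -0.10 in iFGFR2 and -1.13 to -0.52 in iR2. The ranges of all groups overlapped with that of Wnt1, whereas all iFGFR1 arrays were above all iR2 arrays. The mean of the group was highest in iFGFR1 (-0.22), followed by Wnt1 (-0.38), iFGFR2 (-0.79) and iR2 (-0.88). The part of such cells in the Arg1 values was not tested. Mrc1, the mannose receptor, differed from Wnt1 by 0.07 in iFGFR1 and -0.56 in iR2, Retnla by -0.13 and -1.46, and Chil3 by 1.69 and -1.02, none past the test. In iR2 against iFGFR1, 2 of the 9 fell by limma, Chil3 (adjusted p = 0.0369) and Ccl24 (adjusted p = 0.0281). Of all genes, 6.84% were called as lower there. The Chil3 call was lost without any 1 of 8 arrays and the Ccl24 call without any 1 of 4.

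For 13 measured general macrophage markers the mean ratio ran from -0.34 to 0.43 in Wnt1, -0.09 to 0.42 in iFGFR1, -0.27 to 0.24 in iFGFR2 and 0.07 to 0.35 in iR2. In iFGFR1, Msr1 and Fcgr1 rose (0.83 and 0.50, adjusted p = 0.0356 and 0.0498) and C1qa fell (by 0.76, adjusted p = 0.0282). Each of these 3 calls was lost without any 1 of 4 or more arrays (adjusted p up to 0.0958 for C1qa, 0.141 for Msr1 and 0.186 for Fcgr1). Of 11 measured markers of neutrophils, another myeloid type, 3 rose, 1 fell and 7 were not called in iFGFR1 against Wnt1. The mean of 11 neutrophil markers was -2.05 to -1.81 in iFGFR1, above Wnt1 (-2.63 to -2.27), and -3.21 to -2.76 in iR2, below Wnt1. S100a8 rose by 2.56 in iFGFR1 (SE 0.38, adjusted p = 0.000207), S100a9 by 1.59 and Cxcr2 by 0.83, while Ltf fell by 1.70 (adjusted p = 0.0435, lost without any 1 of 10 arrays). In iR2 against Wnt1, 1 of 11 was called, Camp, which fell by 1.15 (adjusted p = 0.00983) and lost its call after quantile normalization (adjusted p = 0.115). The part of these cells in the Arg1 values was not tested. Nor was the part of the lower end of the iR2 arrays, given above, in the neutrophil mean. The mean of 10 fibroblast markers was lower in iFGFR1 (-3.50 to -2.66) than in Wnt1 (-2.09 to -0.98), with 7 of 10 fallen. Of all genes, 15.4% were called in iFGFR1 against Wnt1 and 7.06% as lower, and 7.10% were called in iR2 against Wnt1.

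**Figure D3:**
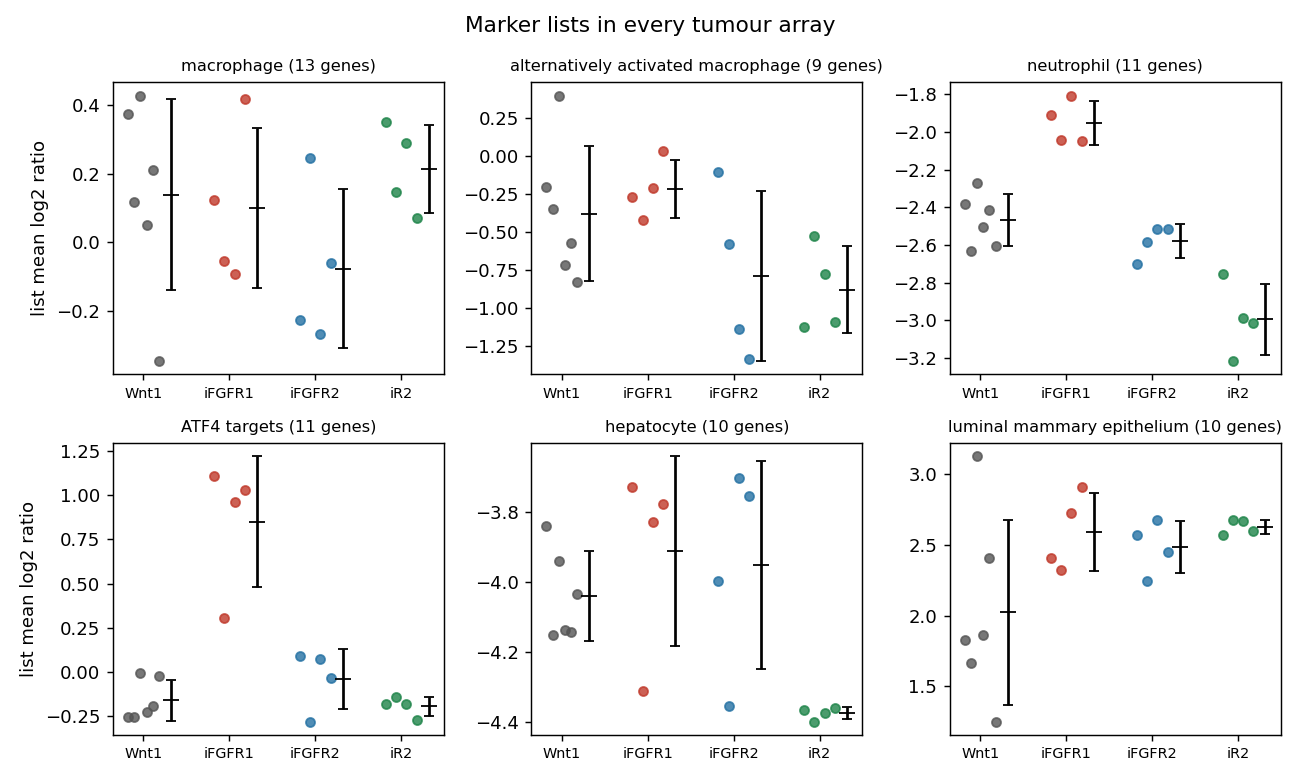
Mean log2 ratio of a marker list (vertical axis, a separate scale per list) on every array of the 4 tumour groups (horizontal axis); points are arrays and bars are mean ± SD (n = 6, 4, 4 and 4). Macrophage means overlap between the groups. Alternatively activated macrophage means of every receptor group overlap Wnt1, but all iFGFR1 arrays (-0.42 to 0.03) lie above all iR2 arrays (-1.13 to -0.52). The neutrophil mean is highest in iFGFR1 (-2.05 to -1.81) and lowest in iR2 (-3.21 to -2.76), and the mean of ATF4 targets is 0.31 to 1.11 in iFGFR1 and at most 0.09 on every other array.

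Nos2, the inducible nitric oxide synthase that competes with arginase for arginine, showed no difference that passed the test in any of the 6 comparisons. The Wnt1 arrays ran from -0.25 over -0.01 to 0.76, the iFGFR1 arrays stood at 0.39, 0.35, -0.42 and -1.75, the iFGFR2 arrays at 0.36, 0.27, 0.48 and -0.62, and the iR2 arrays at 0.57, 0.04, 0.19 and 0.01. All groups overlapped. The lowest iFGFR1 array, replicate 4, set most of that group's difference from Wnt1, which was -0.47 with it (SE 0.34) and -0.0017 without it. iFGFR2 differed from Wnt1 by 0.01 (SE 0.34, adjusted p = 0.988) and iR2 by 0.09 (SE 0.34, adjusted p = 0.912). With these standard errors a small change of Nos2 was not detectable at this number of arrays.

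Odc1, the first enzyme of polyamine synthesis, was lower in iFGFR2 and iR2 than in iFGFR1, and iFGFR2 and iR2 overlapped. The Wnt1 arrays ran from -0.45 over -0.11 to 0.63 and the iFGFR1 arrays stood at 1.01, 0.14, 0.81 and 0.06. The iFGFR2 arrays were at -1.03, -0.57, -0.69 and -1.12 and the iR2 arrays at -0.87, -1.55, -1.14 and -0.99. All 8 iFGFR2 and iR2 arrays were below all 10 Wnt1 and iFGFR1 arrays. Of all genes, in either direction, 4.48% did not overlap between iFGFR2 and Wnt1 and 13.6% between iR2 and Wnt1. Against iFGFR1 the share was 6.17% for iFGFR2 and 22.2% for iR2. In iR2 against Wnt1 Odc1 fell by 1.08 (SE 0.24, 2.11-fold lower, adjusted p = 0.0121), and in iFGFR2 the difference was -0.79 (SE 0.24, adjusted p = 0.0645), which did not pass the test. iFGFR1 was 0.57 higher than Wnt1 (SE 0.24).

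Between the receptor groups Odc1 fell by 1.35 in iFGFR2 against iFGFR1 (SE 0.26, 2.56-fold lower, adjusted p = 0.00719) and by 1.64 in iR2 against iFGFR1 (SE 0.26, 3.12-fold lower, adjusted p = 0.000505). iR2 and iFGFR2 differed by -0.29 (adjusted p = 0.659). In iFGFR2 against iFGFR1, 2 of the 8 genes were past the threshold, both lower (Arg1, given as a description, and Odc1), where 2.13% of all genes were called and 0.924% as lower. In iR2 against iFGFR1, 4 were, all lower (Arg1, again a description, Otc, Cps1 and Odc1), where 11.7% were called and 6.84% as lower. Leaving out any 1 array kept both Odc1 falls against iFGFR1 past the threshold, and among these fits the fall against Wnt1 lost its call without iR2 replicate 2 (-0.94, adjusted p = 0.0588). With only the compared arrays the call of iFGFR2 against iFGFR1 was lost (adjusted p = 0.0721). With the title number as covariate, iR2 against iFGFR1 was -1.05 (adjusted p = 0.137) and iR2 against Wnt1 -0.16 (adjusted p = 0.911).

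Markers of squamous keratinocytes are given beside Odc1. The mean of 10 such markers was -2.40 to -1.55 in iFGFR1, against -3.12 to -2.52 in Wnt1, -3.12 to -2.94 in iFGFR2 and -3.83 to -2.04 in iR2. Only in iFGFR1 were markers of this list called against Wnt1, 3 of 10, where 15.4% of all genes were called. In iFGFR2, where all Odc1 arrays were below those of Wnt1, the group's mean for this list (-3.03) lay close to that of Wnt1 (-2.97). The part of these markers in the Odc1 values was not tested.

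Around the 8 enzymes, lists of genes for transport, support, polyamines, proline, nitric oxide, other uses of arginine and regulation were read in the same fit. They too were written with earlier results known. Against Wnt1, 15.4% of all genes were called in iFGFR1, 3.43% in iFGFR2 and 7.10% in iR2. Of 10 genes that carry arginine, ornithine or their partners, 2 rose and 1 fell in iFGFR1 against Wnt1, and none was called in iFGFR2 or iR2, where none had an unadjusted p under 0.05 either. The cationic amino acid carrier Slc7a3 rose by 1.57 in iFGFR1 (SE 0.32, 2.98-fold, adjusted p = 0.00296), and was lower by 1.70 in iFGFR2 and by 1.59 in iR2 than in iFGFR1 (adjusted p = 0.0138 and 0.00647). Slc3a2, the heavy chain that brings amino acid carriers to the cell surface, rose by 0.71, and Slc7a6 fell by 0.55, a call lost without any 1 of 13 arrays (adjusted p 0.0508 to 0.141). The Slc7a3 difference of iFGFR2 from iFGFR1 was lost without iFGFR2 replicate 3 (adjusted p = 0.0533). The arginine carriers Slc7a1 and Slc7a2 passed no test, at 0.14 and 0.53 in iFGFR1.

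Of 11 genes that feed the urea cycle or move urea, 3 rose and 1 fell in iFGFR1, where 15.4% of all genes were called. Got1 and Got2, which make the aspartate that Ass1 uses, rose by 1.20 (SE 0.18, adjusted p = 0.000189) and 1.07 (SE 0.24, adjusted p = 0.00540), and Car5a, a mitochondrial carbonic anhydrase that supplies bicarbonate to Cps1, by 0.71 (lost without iFGFR1 replicate 1 or 3, adjusted p 0.0851 and 0.0740). The urea carrier Slc14a1 fell by 3.14 (SE 0.42, adjusted p = 7.12e-05). In iR2 against iFGFR1, a comparison that shares the iFGFR1 arrays, Slc14a1 rose by 3.15 (adjusted p = 0.000273) and Got1 fell by 1.61 (adjusted p = 5.31e-05). In iFGFR2 against Wnt1 the one call was another urea carrier, Slc14a2, which fell by 1.52 (SE 0.39, adjusted p = 0.0384, lost without any 1 of 10 arrays), and in iR2 against Wnt1 there was none, with 3 of 11 at an unadjusted p under 0.05.

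Downstream of ornithine, 2 of 13 measured polyamine genes rose in iFGFR1, where 15.4% of all genes were called, and 1 of 13 in iFGFR2, where 3.43% were. Of these, Srm, which makes spermidine, and Eif5a, the protein that spermidine modifies, rose in iFGFR1 (0.67 and 0.65, adjusted p = 0.0313 and 0.0267), Eif5a rose in iFGFR2 (0.72, adjusted p = 0.0447), and none was called in iR2, with 1 at an unadjusted p under 0.05. The Srm rise was lost without any 1 of 6 arrays (adjusted p 0.0503 to 0.104), and those of Eif5a without any 1 of 3 (0.0579 to 0.103) and any 1 of 12 (0.0525 to 0.148). Srm was lower by 0.97 in iR2 than in iFGFR1 (adjusted p = 0.00731). Of 7 genes between ornithine and proline, 2 rose and 1 fell in iFGFR1, 1 rose and 1 fell in iFGFR2 and 1 rose in iR2, with list medians of -0.38, 0.16 and 0.07. Prodh, which breaks proline down, rose in all 3 groups, by 1.08 in iFGFR1, 1.13 in iFGFR2 and 1.004 in iR2 (adjusted p = 0.00221, 0.00897 and 0.00974), the last lost without iR2 replicate 3 (adjusted p = 0.0521). Aldh18a1, which makes the precursor of ornithine and proline from glutamate, rose by 1.23 in iFGFR1 (SE 0.22, adjusted p = 0.00102) and was lower by 1.26 in iR2 than in iFGFR1 (adjusted p = 0.00226). Aldh4a1, which takes the product of Prodh on to glutamate, fell by 0.73 in iFGFR1 (SE 0.18, adjusted p = 0.00841). P4ha2, which hydroxylates proline in collagen, fell by 1.25 in iFGFR2 (SE 0.34, adjusted p = 0.0454), a call lost without any 1 of 13 arrays. Oat, which links ornithine to proline, passed no test.

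Of all genes, 15.4% were called in iFGFR1 against Wnt1. In the nitric oxide list, Gch1, which makes the cofactor of nitric oxide synthases, rose by 1.25 in iFGFR1 (SE 0.24, adjusted p = 0.00202) and was the one call of 11 there. None was called in iFGFR2 or iR2, with 4 and 2 at an unadjusted p under 0.05. Of 11 other enzymes that act on arginine or on compounds made from it, 4 rose and 1 fell in iFGFR1. Padi4, which turns arginine in proteins into citrulline, rose by 2.21 in iFGFR1 (SE 0.28, adjusted p = 4.6e-05), and a second enzyme of that family, Padi2, rose by 2.67 in iFGFR2 (SE 0.42, 6.38-fold, adjusted p = 0.00375) and by 2.12 in iR2 (SE 0.42, 4.36-fold, adjusted p = 0.00672). Padi4 was lower in iFGFR2 and iR2 than in iFGFR1 (by 1.78 and 1.96, adjusted p = 0.00349 and 0.000494), whereas Padi2 in those groups did not pass the test against iFGFR1 (adjusted p = 0.0581 and 0.114). Rars, which charges arginine to its tRNA, rose by 1.34 in iFGFR1 (adjusted p = 0.00088), and Agmat fell in all 3 groups, by 0.61, 0.70 and 0.81, calls that were lost without any 1 of 7, 11 and 2 arrays (adjusted p up to 0.123, 0.122 and 0.0705).

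Among 24 regulators and inducers of Arg1, Nos2 or Odc1, 2 rose and 1 fell in iFGFR1, where 15.4% of all genes were called. In iR2 2 rose, where 7.10% of all genes were called. Atf4, a factor of the amino acid response, rose by 1.35 in iFGFR1 (SE 0.25, adjusted p = 0.00147) and by 0.88 in iR2 (SE 0.25, adjusted p = 0.0393). Cebpb rose by 0.83 in iFGFR1 and Il1b fell by 1.01. Myc, for which Odc1 is a known target gene, rose by 0.63 in iR2 (SE 0.18, adjusted p = 0.0409), the group with the lowest Odc1. The remaining regulators passed no test against Wnt1. The Myc call was lost without any 1 of 7 arrays (adjusted p 0.0701 to 0.163), that of Atf4 in iR2 without any 1 of 8 (0.0538 to 0.122), that of Il1b without any 1 of 5 (0.0523 to 0.0914) and that of Cebpb without iFGFR1 replicate 2 (0.0553). Of 11 ATF4 targets, 7 rose in iFGFR1, among them Chac1 by 2.05 and Phgdh by 1.49 (adjusted p = 0.00011 and 4.52e-05), none in iFGFR2 or iR2, with 2 at an unadjusted p under 0.05 in each, and 7 fell in iR2 against iFGFR1. Of all genes, 8.38% were called as higher in iFGFR1 against Wnt1 and 6.84% as lower in iR2 against iFGFR1. The group of ATF4 targets was known to be high in iFGFR1 when the list was written. Its counts and p-values in comparisons that hold iFGFR1 are therefore descriptions. The falls in iR2 against iFGFR1 share the iFGFR1 arrays with the rises.

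**Figure D4:**
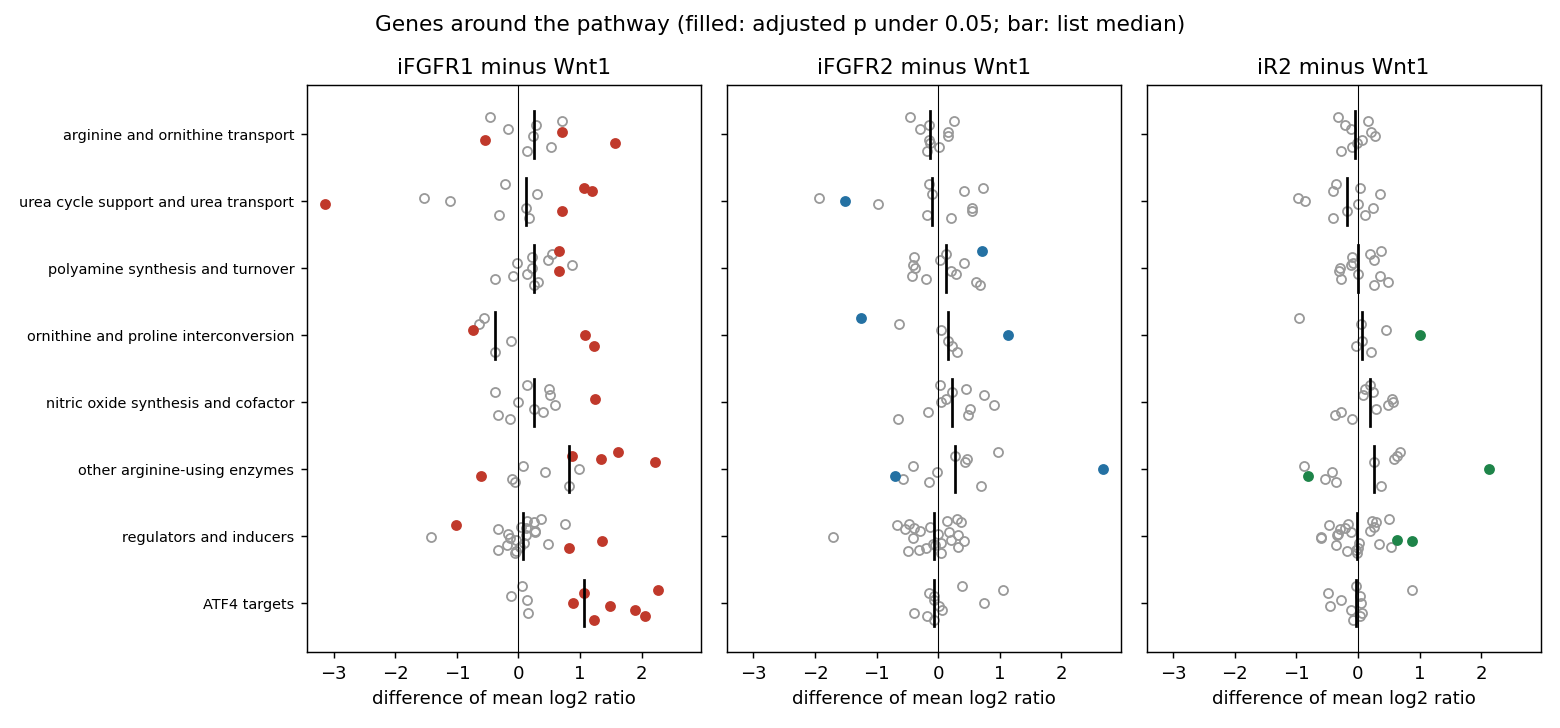
Difference of the mean log2 ratio from the Wnt1 arrays (horizontal axis) for the measured genes of 8 lists around the pathway (vertical axis), in iFGFR1, iFGFR2 and iR2 tumours; each point is a gene, filled where its adjusted p is under 0.05, and the bar is the list's median. Filled points are most frequent in iFGFR1, where 15.4% of all genes were called, from -3.14 for Slc14a1 to 2.27 for Eif4ebp1, and Padi2 is the highest point in iFGFR2 and iR2.

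Across the 18 arrays the 8 genes followed each other to different degrees. These correlations are descriptions over arrays that share a reference and fall into 4 groups. The highest was between Arg2 and Asl (Pearson r = 0.83), followed by Arg1 and Arg2 (0.82), Asl and Ass1 (0.75), Arg2 and Ass1 (0.75) and Arg1 and Asl (0.73). Odc1 lay close to 0 with Asl (0.00) and Arg2 (0.04). With each group's mean taken out, the same pairs stood at 0.49 for Arg2 and Asl, 0.44 for Arg1 and Arg2, 0.42 for Asl and Ass1, 0.47 for Arg2 and Ass1 and 0.23 for Arg1 and Asl, and Cps1 with Otc turned from 0.56 to -0.24.

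The genes most like each member over the 18 arrays, by Pearson r, were Ier3 (0.92), Bsg (0.91) and Acsl4 (0.89) for Arg1, and Prom1 (0.93), Usp3 (0.93) and Hsd17b12 (0.92) for Arg2. For Asl they were Cyp20a1 (0.96), Tead2 (0.95) and Ly6g6d (0.94), and for Ass1 Klhdc3, Creb3 and Atad3a (0.89 to 0.90). Cps1 was most like Tmem97 (0.94), Gad2 (0.94) and Abcc2 (0.93), and Odc1 most like Gpx2 (0.91), Krtdap (0.88) and Dcaf15 (0.87). For Otc they were Asb11, Smgc and Col6a4 (0.89 to 0.90) and for Nos2 Lenep, Trmt13 and 1500004A13Rik (0.84 to 0.86). With each group's mean taken out, r fell to between 0.46 and 0.69 for the 3 genes of Cps1, 0.51 and 0.74 for those of Odc1 and 0.53 and 0.83 for those of Arg1. It was 0.73 to 0.88 for those of Arg2, 0.81 to 0.88 for Asl, 0.81 to 0.87 for Ass1, 0.82 to 0.93 for Otc and 0.82 to 0.90 for Nos2. Prom1, a membrane protein used as a marker of some progenitor cells, stood at 0.69 ± 0.36 in Wnt1 (SD, n = 6), 3.54 ± 0.27 in iFGFR1, 2.56 ± 0.60 in iFGFR2 and 2.43 ± 0.30 in iR2 (n = 4 each), the same order of Wnt1 below the 3 receptor groups as Arg2.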

How the data were processed

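RNA of 18 mammary tumours was compared on arrays with 2 channels. The authors deposited 1 table of log2 ratios for 22575 features without empty cells. The base of the logarithm and the direction are not stated in it: base 2 was assumed, and tumour (Cy5) over reference (Cy3) was taken from the dyes per the labels. The sources used here do not name the scanner, background correction or normalization. Features with 1 gene symbol in the platform annotation (18658) were averaged per symbol into 16887 genes, and 30 features with several symbols and 3887 with none were left out. Each of the 8 genes had 1 feature, with an Entrez identifier found in RefSeq (GRCm38.p6).

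All 18 arrays were fitted with limma 3.58.1 (lmFit and eBayes, no covariate) in R 4.3.3, with Benjamini-Hochberg adjustment over 16887 genes for each comparison, and calls were made at 0.05. Adjusted p-values are from this fit unless another setting is named. Effects are differences of mean log2 ratios with standard errors (SE). The script was tested on simulated data. The genes, the 8 related lists and the 11 marker lists were chosen with earlier results of these data known. The named genes are the 8 members, up to 4 called genes per related list and comparison by smallest p, and the 3 genes with the highest Pearson correlation with each member. Genes named beyond these as not called, or from the marker lists, were chosen after their values were seen. Replicate numbers follow accession order and pair nothing. Alternatives were quantile normalization, centring, scaling, array weights, other priors, the choice of feature, filters, the arrays in the fit, the title number as covariate, a threshold of 0.01 and each array left out. The number of arrays limits the precision.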

Additional observations from a re-analysis of the deposited data

Results flagged for a closer look

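Results are listed here where a gene differed between 2 receptor groups by limma's test and lay on opposite sides of the Wnt1 mean in them. Odc1 was lower by 1.35 on the log2 scale in iFGFR2 than in iFGFR1 (difference -1.35) and lower in iR2 than in iFGFR1 (difference -1.64), being above the Wnt1 mean in iFGFR1 and below it in the other 2 groups. Cps1 differed by -3.54 between iR2 and iFGFR1 and by -2.63 between iR2 and iFGFR2, being below the Wnt1 mean in iR2 alone. Otc differed by -1.04 between iR2 and iFGFR1. After quantile normalization the Cps1 differences by limma were -2.43 from iFGFR1 (adjusted p = 0.000188) and -1.68 from iFGFR2 (adjusted p = 0.0459), still past the threshold. The Otc difference was then -0.72 (adjusted p = 0.168) and lost its call. The part of the lower end of the iR2 arrays, given above, in these differences was not tested. By Dixon's gap test at the 95% level, no array stood apart from its group for any of the 8 genes, over 32 sets of 1 gene in 1 group. The lowest Nos2 array of iFGFR2 came close, with a gap of 0.812 of the group's range. With 4 arrays in a group only a very wide gap can be flagged. A single array could still weigh on a difference, as iFGFR1 replicate 4 did for Nos2 above.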

How the results depend on the processing

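No paired analysis was possible because the replicate numbers only follow accession order and the labels pair no arrays. The number of the 8 genes called moved by over 1.5 times in these settings. The number of genes called in all is given in brackets, against 2608 in iFGFR1 against Wnt1, 579 in iFGFR2 against Wnt1, 1199 in iR2 against Wnt1, 360 in iFGFR2 against iFGFR1, 1968 in iR2 against iFGFR1, 227 in iR2 against iFGFR2 and 3311 by the F test. With genes filtered on their mean ratio, which left 5 of the 8 to test, 3 were called by the F test (1899), 3 in iFGFR1 against Wnt1 (1689), 1 in iFGFR2 against Wnt1 (358), 2 in iR2 against iFGFR1 (848), 3 in iR2 against Wnt1 (708) and 0 in iR2 against iFGFR2 (5; limma, 0 of the 8 at an unadjusted p under 0.05). With the title number as covariate, 1 was called in iFGFR2 against Wnt1 (647), 1 in iR2 against iFGFR1 (265), 0 in iR2 against iFGFR2 (2; 1 unadjusted) and 0 in iR2 against Wnt1 (52; 3 unadjusted), and the cause was not tested. With only the compared arrays, 1 was called in iFGFR2 against iFGFR1 (71) and 0 in iFGFR2 against Wnt1 (143; 6 unadjusted). At a threshold of 0.01, 0 were called in iFGFR2 against Wnt1 (82; 6 unadjusted) and 1 in iR2 against Wnt1 (235). Scaling each array to 1 median absolute deviation gave 2 in iR2 against iFGFR2 (1591). Leaving out 1 array at a time gave 0 to 5 in iFGFR2 against Wnt1, with 0 without iFGFR2 replicate 1 (99), 5 without iFGFR2 replicate 2 (1470), and 1 without Wnt1 replicate 4 (284) or 6 (270) or iFGFR2 replicate 4 (240). It gave 2 to 6 in iR2 against Wnt1, with 2 without iR2 replicate 1 (335) or 2 (389), and 3 without iR2 replicate 3 (303) or Wnt1 replicate 2 (725), 4 (903) or 6 (689). It gave 4 to 6 in iFGFR1 against Wnt1, 5 to 6 by the F test, 3 to 4 in iR2 against iFGFR1, 2 in iFGFR2 against iFGFR1 and 1 in iR2 against iFGFR2.

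The direction turned under some setting for 0 called and 10 uncalled differences, over 23 combinations of a difference and a setting. With the title number as covariate these were, for iR2 against iFGFR2, Arg1 (-0.0496), Arg2 (-0.0388), Asl (0.23) and Odc1 (0.37), and Nos2 in iFGFR1 against Wnt1 (0.0053). Nos2 in iFGFR2 against Wnt1 was -0.0241 after quantile normalization, -0.0164 after scaling and -0.045 with array weights, and Otc in iFGFR2 against iFGFR1 was 0.0009 with array weights. With 1 array left out the range was -0.25 to 0.29 for Arg2 in iR2 against iFGFR2, -0.20 to 0.0314 for Ass1 in iFGFR2 against iFGFR1 and -0.42 to 0.17 for Otc there. For Nos2 it was -0.11 to 0.26 in iFGFR2 against Wnt1, -0.17 to 0.20 in iR2 against iFGFR2 and -0.029 to 0.22 in iR2 against Wnt1. Array weights brought Ass1 past the threshold in iFGFR2 (0.90, adjusted p = 0.0381) and iR2 (0.72, adjusted p = 0.00324) against Wnt1.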
